A study of Mus musculus with 9 samples.

Results

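YAP and TEAD pathway genes and their targets were followed by symbol in a table of gene expression from ROC6, a mouse oral squamous cell line. The set was named as Yap1, Wwtr1, Tead1, Tead2, Tead3, Ccn1, Ccn2, Ankrd1, Amotl2 and Lats2, and a gene was taken where its symbol occurred once. Of these 10 genes, 6 had such a row among 15446 uniquely named genes: Tead1, Tead2, Tead3, Ccn1, Ccn2 and Amotl2. Yap1, Wwtr1, Ankrd1 and Lats2 had no row and are unmeasured here, which says nothing of their expression. The libraries fall into 3 groups of 3: cells with a CSMD3 knockout made with guide 2, cells with a CSMD3 knockout made with guide 1, and a WT Control without the knockout. All were grown in the same serum-containing medium, and polyadenylated RNA was sequenced. From the series description each knockout is a separate clone, so a difference between the guides cannot be told apart from a difference between clones. The label and protocol call ROC6 an oral squamous cancer line, while the series title speaks of premalignant cells.

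The Hippo pathway is a kinase cascade in which STK3 and STK4, with the scaffold SAV1, activate LATS1 and LATS2. The LATS kinases phosphorylate the coactivators YAP1 and WWTR1, also called TAZ, and keep them out of the nucleus. Unphosphorylated YAP1 and WWTR1 bind TEAD transcription factors and raise genes such as Ccn1 and Ccn2, which encode secreted matricellular proteins. In squamous epithelia the pathway is known for linking cell density and tension to growth. Its activity is set mainly by phosphorylation and location of proteins, which RNA levels do not show.

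Expression was given as FPKM, fragments scaled to transcript length and to the mapped total, so levels are comparable between genes of different length. Summed FPKM over the uniquely named genes lay between 162625 and 168620 in the 9 libraries. The counts behind the values are unknown, so counting error could not be separated from other spread. In 15441 of the 15446 rows the means of both knockouts were on one side of the control mean. A shared direction of the guides is thus a property of these rows, and it is given below as description only. By the submitters' name, the deposited values are common DEGs, differentially expressed genes, of CSMD3 knockout against control. The rows may thus have been chosen on that contrast, by a rule not given in the sources used here. Shares over all genes tested are therefore shares of these rows and not of all expressed genes. Csmd3 is not analysed here, so the labels were not checked against the targeted gene. Of 17 squamous epithelial markers, 8 had a row. Perp, a desmosomal membrane protein gene, led them at 79.1 to 105 FPKM by group mean, Krt15, Krt16 and Krt17 were under 1 FPKM in every group mean, and Krt5, Krt14 and Trp63 had no row. The 8 squamous genes summed to 95.04 to 99.6 FPKM with guide 2 and 116 to 126 FPKM with guide 1, against 80.1 to 88.4 FPKM in the control. Perp makes up most of this sum, and other members had other patterns. Pkp1, a plakophilin, averaged 9.10 ± 0.293 FPKM with guide 2 and 4.36 ± 0.260 FPKM with guide 1, against 1.07 ± 0.307 FPKM in the control (SD, n = 3 each). Itga6, an integrin chain, averaged 2.34 ± 0.262 FPKM with guide 2 and 9.49 ± 0.373 FPKM with guide 1, against 2.23 ± 0.0314 FPKM in the control. Itgb4, its partner chain, was untested at 0.612 ± 0.0892 FPKM with guide 2 and 0.309 ± 0.0480 FPKM with guide 1, against 0.843 ± 0.0426 FPKM in the control, with all knockout libraries below the controls. Of the markers of other cell types, 3 of 11 fibroblast genes, 1 of 7 leukocyte genes, 2 of 6 endothelial genes and 5 of 8 skeletal muscle genes had a row. The fibroblast genes summed to 13.8 to 14.6 FPKM with guide 2 and 8.81 to 12.2 FPKM with guide 1, against 3.70 to 3.998 FPKM in the control. Its members were unlike. Postn averaged 7.83 FPKM with guide 2 and 1.605 FPKM with guide 1, against 1.30 FPKM in the control. Twist2 averaged 5.60 FPKM with guide 2 and 9.25 FPKM with guide 1, against 2.51 FPKM in the control. Col1a2 was under 1 FPKM in each library. Cd68, the leukocyte gene, was at 1.81 to 2.501 FPKM with guide 2 and 1.196 to 1.54 FPKM with guide 1, against 0.473 to 0.875 FPKM in the control. Summed endothelial and muscle genes stayed under 1 FPKM in each library. The part of these markers in the results below was not tested, and in bulk RNA fewer cells of a type and less RNA per cell cannot be told apart.

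Averaged over both guides, all 6 measured genes passed the test against control, 5 of them higher and 1, Tead3, lower, at a limma adjusted p under 0.05 on log2(FPKM + 1). Among all 6965 genes tested, 37.8% were called higher and 43.3% lower in this comparison, 81.1% in all, so being called is the common outcome in these rows. The call of Amotl2 was lost under 9 of 17 other settings. The median log2 difference was 0.51 over the 6 genes and -0.08 over all genes tested. The labels do not say whether replicates were grown apart. The p-values then reflect only how these libraries scatter, which may be technical.

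The TEAD genes encode the DNA-binding partners of YAP1 and WWTR1, and they did not move alike. Tead1 was higher with both guides, Tead2 was higher with guide 1, and Tead3 was lower with both. Tead1 stood at 14.4, 15.8 and 16.4 FPKM with guide 2 and at 15.9, 16.5 and 15.8 FPKM with guide 1, against 10.9, 10.9 and 12.6 FPKM in the control. Every knockout library exceeded every control library, and the guides overlapped each other. The log2 difference from control was 0.41 with guide 2 and 0.46 with guide 1 (SE 0.0656 each, limma adjusted p = 0.000305 and 0.000116). Between guides Tead1 differed by -0.05 on the log2 scale, with a 95% interval from -0.20 to 0.10 (limma adjusted p = 0.558).

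Tead2, the TEAD gene with the largest difference between guides, stood at 10.3, 10.0 and 10.2 FPKM with guide 2 and at 25.6, 22.6 and 24.8 FPKM with guide 1, against 8.21, 9.50 and 10.5 FPKM in the control. The guide 1 libraries were all above the others, while guide 2 lay within the control range. With guide 1 the level was 2.58 times that of the control, a log2 difference of 1.29 (SE 0.0792, limma adjusted p = 2.01e-07). With guide 2 the log2 difference of 0.11 did not pass (95% interval -0.07 to 0.29, limma adjusted p = 0.24), and without control replicate 3 it was 0.19 and passed (limma adjusted p = 0.0447). Guide 2 was lower than guide 1 by a log2 difference of -1.18 (limma adjusted p = 9.18e-07). In the GENCODE annotation an exon of Tead2 overlaps an exon of Cd37 on the opposite strand. The library kit keeps strand, but whether the counting used it is not given in the sources used here.

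Tead3 stood at 8.67, 8.81 and 10.1 FPKM with guide 2 and at 10.4, 10.5 and 11.1 FPKM with guide 1, against 11.5, 12.5 and 12.8 FPKM in the control. The knockout libraries all lay below the controls, and guide 2 lay below guide 1. The log2 difference was -0.38 with guide 2 (SE 0.0659, limma adjusted p = 0.000484) and -0.19 with guide 1 (SE 0.0659, limma adjusted p = 0.0275). The guide 1 call was lost under 7 of 18 other settings. These were no filter on low values (limma adjusted p = 0.0517), quantile normalization (0.051), trimmed mean rescaling (0.0688), and leaving out guide 1 replicate 1 (0.0805) or 2 (0.0712) or control replicate 2 (0.0762) or 3 (0.0831). The difference between guides was also small, -0.20 (limma adjusted p = 0.0276). It did not pass without a filter on low values (0.0563) or on leaving out guide 2 replicate 1 (0.0896) or 2 (0.0945) or guide 1 replicate 2 (0.0533) or 3 (0.0914).

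Tead4, the fourth TEAD gene and not one of the 10, averaged 6.77 ± 0.369 FPKM with guide 2 and 6.32 ± 0.286 FPKM with guide 1, against 5.53 ± 0.331 FPKM in the control (SD, n = 3 each). Averaged over the guides its log2 difference was 0.21 (limma adjusted p = 0.00436). The summed level of Tead1 to Tead4 was 40.0 to 43.9 FPKM with guide 2 and 55.6 to 58.3 FPKM with guide 1, against 35.9 to 41.3 FPKM in the control. Tead2 made up 24.5% ± 1.29 of this sum with guide 2 and 42.4% ± 1.70 with guide 1, against 24.3% ± 1.34 in the control (SD, n = 3 each). Tead3 made up 22.0% ± 0.906 with guide 2 and 18.6% ± 0.671 with guide 1, against 31.8% ± 0.639 in the control. Tead1 had the highest level of the 4 with guide 2, Tead2 with guide 1 and Tead3 in the control, although the control libraries of Tead1 and Tead3 overlapped.

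**Figure D1:**
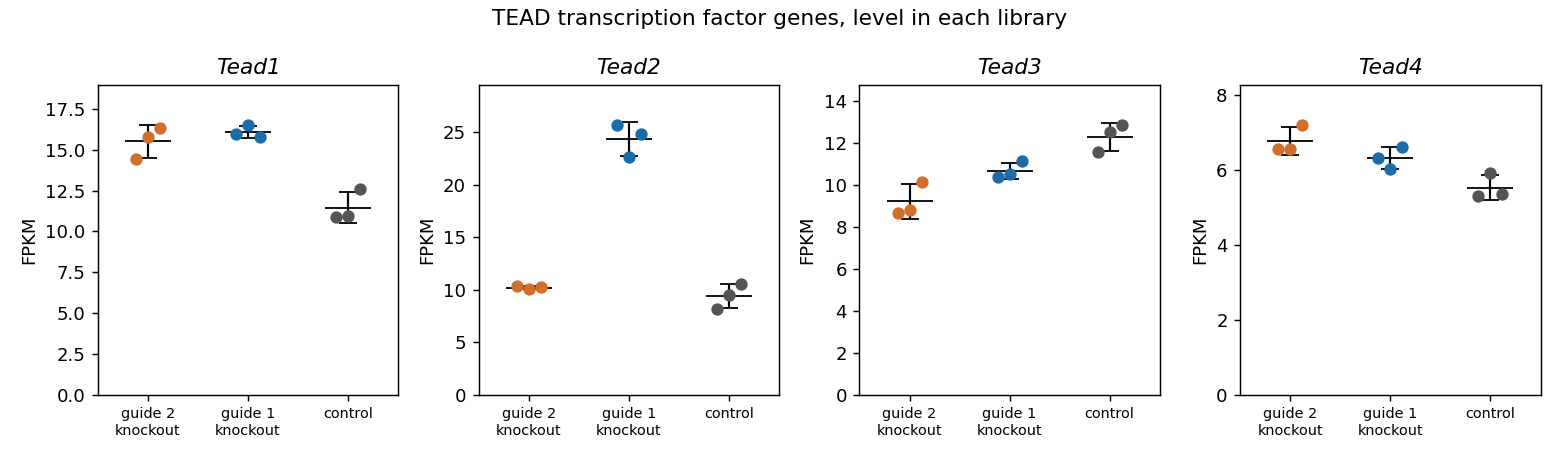
Level of each TEAD gene in FPKM (vertical axes start at 0) in the guide 2 knockout, guide 1 knockout and control libraries. Points are libraries and bars are the mean and SD of 3. Tead2 is high in the guide 1 libraries, at 22.6 to 25.6 FPKM, and Tead3 is highest in the control.

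The target genes showed opposite preferences between the clones: Ccn1 was highest with guide 2 and Ccn2 with guide 1. Ccn1, formerly Cyr61, encodes an integrin-binding matricellular protein. It stood at 673, 681 and 702 FPKM with guide 2 and at 409.6, 434 and 428 FPKM with guide 1, against 348, 329 and 404 FPKM in the control. The 3 groups did not overlap, though the highest control library was within 6 FPKM of the lowest guide 1 library. The mean level was 1.90 times that of the control with guide 2 and 1.18 times with guide 1. The log2 differences were 0.93 with guide 2 and 0.24 with guide 1 (SE 0.067 each, limma adjusted p = 8.36e-07 and 0.00932), and guide 2 exceeded guide 1 by 0.69 (95% interval 0.54 to 0.84, limma adjusted p = 1.19e-05).

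Ccn2, formerly Ctgf, encodes connective tissue growth factor. It stood at 80.8, 80.2 and 87.0 FPKM with guide 2 and at 603, 619 and 683 FPKM with guide 1, against 56.1, 51.2 and 72.3 FPKM in the control. Guide 1 was far above the other groups, and guide 2 was above the control in all 3 libraries. The mean with guide 1 was 10.6 times the control, a log2 difference of 3.40 (SE 0.107, limma adjusted p = 1.52e-09), and with guide 2 it was 1.38 times the control, a log2 difference of 0.47 (SE 0.107, limma adjusted p = 0.00278). The difference of guide 2 from guide 1 was -2.92 (95% interval -3.16 to -2.69, limma adjusted p = 1.33e-08). Gm15270, a predicted gene with exons that overlap Ccn2 on the opposite strand, was at 0.107 to 0.111 FPKM with guide 2 and 0.907 to 1.39 FPKM with guide 1, against 0.0449 to 0.0705 FPKM in the control. Reads of the pair cannot be told apart unless the counting used strand. The Ccn2 level over the Ccn1 level was 0.121 ± 0.00312 with guide 2 and 1.498 ± 0.0881 with guide 1, against 0.165 ± 0.0123 in the control (SD, n = 3 each).

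Amotl2 encodes an angiomotin family scaffold that binds YAP1 and is itself a known YAP target. It stood at 58.7, 61.6 and 64.2 FPKM with guide 2 and at 67.2, 62.0 and 66.0 FPKM with guide 1, against 55.2, 51.6 and 64.0 FPKM in the control. Control replicate 3 lay inside the range of both knockouts, so the groups overlapped. The log2 difference was 0.11 with guide 2 (95% interval -0.05 to 0.28, limma adjusted p = 0.194) and 0.20 with guide 1 (95% interval 0.03 to 0.36, limma adjusted p = 0.0368). The guide 1 call was lost under 8 of 18 other settings, and without control replicate 2 it was 0.13 (limma adjusted p = 0.145). Without control replicate 3 the guide 2 difference was 0.20 and passed (limma adjusted p = 0.0115). The mean of both guides gave 0.15 (limma adjusted p = 0.0443), and without control replicate 3 it gave 0.24 (limma adjusted p = 0.00197). Without control replicate 2 it gave 0.09 (limma adjusted p = 0.226). The difference between guides, -0.08, did not pass (95% interval -0.24 to 0.08, limma adjusted p = 0.39).

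**Figure D2:**
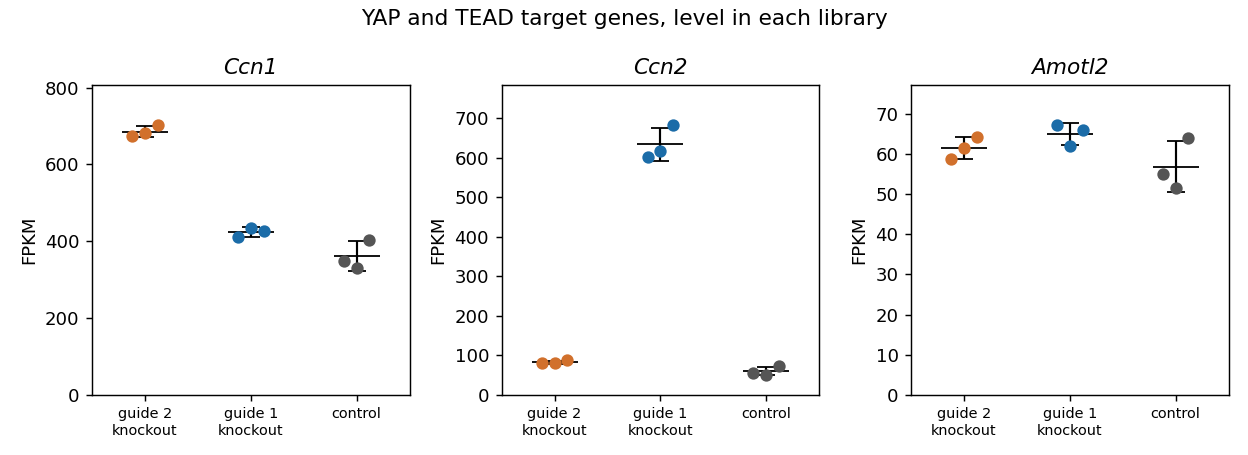
Level of Ccn1, Ccn2 and Amotl2 in FPKM (vertical axes start at 0) in the guide 2 knockout, guide 1 knockout and control libraries. Points are libraries and bars are the mean and SD of 3. Ccn1 is highest with guide 2, at 673 to 702 FPKM, Ccn2 is highest with guide 1, at 603 to 683 FPKM, and Amotl2 overlaps between groups.

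The promoters of the target genes Ccn1 and Amotl2 and of Tead2, the TEAD gene that differed most between guides, are shown to place the recognition sequence of TEAD factors in them. Each is the 250 bases before the RefSeq start on the GRCm38.p6 build, read along the gene: chr3:145649986-145650235, minus strand, for Ccn1, chr9:102717554-102717803, plus strand, for Amotl2 and chr7:45215542-45215791, plus strand, for Tead2. Capitals mark the core CATTCC of the TEAD motif, searched on both strands.
Ccn1: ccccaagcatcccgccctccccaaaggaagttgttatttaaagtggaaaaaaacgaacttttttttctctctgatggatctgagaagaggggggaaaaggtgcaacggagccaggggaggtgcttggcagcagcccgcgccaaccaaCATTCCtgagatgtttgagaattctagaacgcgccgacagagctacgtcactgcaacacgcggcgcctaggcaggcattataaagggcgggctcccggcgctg
Amotl2: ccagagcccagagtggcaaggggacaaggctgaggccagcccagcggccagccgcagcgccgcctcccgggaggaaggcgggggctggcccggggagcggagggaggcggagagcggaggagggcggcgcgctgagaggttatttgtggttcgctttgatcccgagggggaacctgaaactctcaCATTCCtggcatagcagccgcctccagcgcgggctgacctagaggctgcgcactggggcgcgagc
Tead2: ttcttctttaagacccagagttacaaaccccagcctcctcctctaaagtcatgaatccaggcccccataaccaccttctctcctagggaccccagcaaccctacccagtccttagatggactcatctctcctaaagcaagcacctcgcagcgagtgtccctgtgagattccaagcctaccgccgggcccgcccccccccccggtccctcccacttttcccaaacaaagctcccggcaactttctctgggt
Ccn1 held 1 match, 103 to 98 bases before the start, Amotl2 held 1, 65 to 60 bases before the start, and Tead2 held 0. The bases after the RefSeq start were found in 0 GENCODE transcripts of Ccn1, and in 2 each of Amotl2 and Tead2. The distance in Ccn1 thus rests on the RefSeq start alone. Tead3, which was lower with both guides, has 3 RefSeq starts, whose windows held 1, 2 and 0 matches. Of the unmeasured genes, Ankrd1 held 2, Yap1 held 1, both windows of Wwtr1 held 1 and both of Lats2 held 0. The windows of Wwtr1 overlap, and their match is the same site. Of 32851 promoter windows of this length, 12.6% held at least 1 match. Neither the AP-1 motif TGANTCA, found in 6.75% of windows, nor the CArG box of SRF, found in 1.47%, was present in any of these windows. RefSeq promoters were found for 8 of the 10 genes, without Tead1 and Ccn2. A match is a run of letters and not a measured binding site.

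The gap to control was set beside the gap between guides for each gene. The gap of the mean of both guides to control was the larger in 3 of 6 genes, Tead1 (0.43 against 0.05), Tead3 (0.29 against 0.20) and Amotl2 (0.15 against 0.08), as absolute log2 differences. The gap between guides was the larger in the other 3, Tead2 (1.18 against 0.70 to control), Ccn1 (0.69 against 0.58) and Ccn2 (2.92 against 1.93). Among all genes tested, 63.6% had the larger gap to control, and with 6 genes no test of the share was made. As both guide means lay on one side of the control mean in nearly all rows, these rows favour a larger gap to control. This holds for the 6 genes and for all genes tested. Between guides 1 gene, Ccn1, was called higher with guide 2 and 3 lower, Tead2, Tead3 and Ccn2, where 31.2% and 23.3% of all genes tested were called higher and lower, 54.5% in all.

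Against the control, guide 2 had 3 genes called higher (Tead1, Ccn1, Ccn2) and 1 lower (Tead3), with 31.9% and 33.5% of all genes tested called in these directions, 65.4% in all. Guide 1 had 5 called higher and 1 lower, with 30.2% and 37.9% of all genes tested, 68.1% in all. Both guides were called higher in 3 genes and lower in 1, beside 22.6% and 26.2% of all genes tested. The comparisons use the same 3 controls. All 6 knockout libraries lay above the controls in 3 genes, Tead1, Ccn1 and Ccn2, and below them in 1, Tead3, beside 24.7% and 29.0% of all genes tested. The ordering of Ccn1, higher with guide 1 than in the control and higher again with guide 2, was called in 6.45% of all genes tested. That of Ccn2, higher with guide 2 than in the control and lower than with guide 1, was called in 7.47%.

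**Figure D3:**
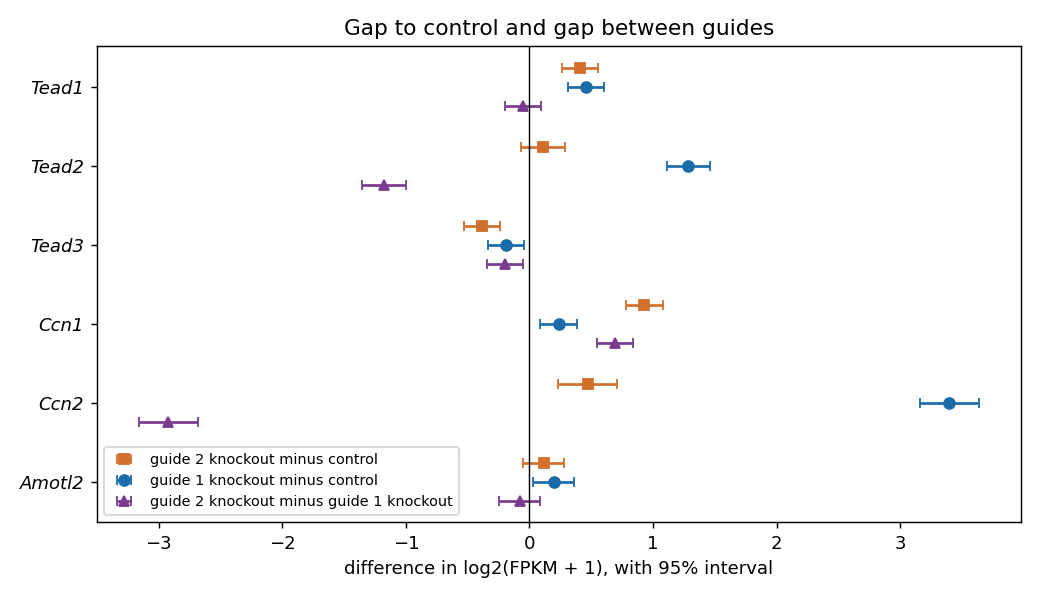
Differences in log2(FPKM + 1) for the 6 measured genes, with guide 2 knockout minus control as squares, guide 1 knockout minus control as circles and guide 2 minus guide 1 as triangles. Bars are 95% intervals of the limma fit. Ccn2 and Tead2 show large negative differences of guide 2 from guide 1, -2.92 and -1.18, and Ccn1 a positive one of 0.69.

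Genes that act upstream of YAP1 went both ways. Of 34 listed Hippo upstream genes 21 had a row and 20 were tested. In the mean of both guides 10 of these were higher and 7 lower, with a median log2 difference of 0.04. The 20 include Amotl2, already described above. Without it, 9 of 19 were higher and 7 lower, with a median of -0.079 against -0.084 over all genes tested. Over all genes tested 37.8% were higher and 43.3% lower. With each guide tested by itself, 2 of the 20 were called higher with both and 6 lower with both, beside 22.6% and 26.2% of all genes tested. Of the cascade genes, Stk3 had log2 differences of 0.325 with guide 2 and 0.35 with guide 1 (limma adjusted p = 0.00211 and 0.0012). Lats1 had 0.33 with guide 2 (limma adjusted p = 0.00188), and its 0.05 with guide 1 did not pass (limma adjusted p = 0.529). Stk4 had -0.27 with guide 2 and -0.20 with guide 1, and Sav1 -0.29 and -0.33 (limma adjusted p = 0.00058, 0.00349, 0.00475 and 0.00174). Among the decreases were Wwc1, which encodes the scaffold KIBRA, and Nf2, which encodes merlin, both activators of the LATS kinases. Wwc1 stood at 22.5, 23.8 and 24.3 FPKM with guide 2 and at 48.8, 45.6 and 49.9 FPKM with guide 1, against 65.9, 62.9 and 68.4 FPKM in the control. Nf2 stood at 14.1, 14.1 and 14.6 FPKM with guide 2 and at 22.7, 22.4 and 23.3 FPKM with guide 1, against 29.1, 28.8 and 26.9 FPKM in the control. In both genes the groups were separate and guide 2 was the lowest. The log2 differences were -1.44 with guide 2 and -0.44 with guide 1 for Wwc1 (limma adjusted p = 5.71e-09 and 2.65e-05). They were -0.94 with guide 2 and -0.30 with guide 1 for Nf2 (limma adjusted p = 5e-08 and 0.000206). Guide 2 differed from guide 1 by -1.001 in Wwc1 and -0.64 in Nf2 (limma adjusted p = 1.41e-07 and 1.46e-06). Taok3, a kinase of the TAO family, averaged -0.35 on the log2 scale over both guides (limma adjusted p = 0.000888).

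Increases upstream were led by Mink1, a MAP4K family kinase. Mink1 stood at 18.2, 22.7 and 21.6 FPKM with guide 2 and at 8.86, 8.65 and 9.06 FPKM with guide 1, against 8.41, 8.68 and 8.39 FPKM in the control, so it was high in the guide 2 libraries alone. Its log2 difference was 1.197 with guide 2 (limma adjusted p = 2.04e-07), and with guide 1 it was 0.05 and did not pass (limma adjusted p = 0.514). Limd1, an adaptor of the Ajuba family that binds LATS kinases, differed by 0.62 with guide 2 and 0.43 with guide 1 (limma adjusted p = 5.58e-05 and 0.000681). Fat1, a giant cadherin, differed by 0.60 with guide 1 (limma adjusted p = 2.49e-05) while its guide 2 difference of 0.11 failed the test (limma adjusted p = 0.176).

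A published signature of conserved YAP and TAZ targets in tumours gave a mixed picture beyond the 3 targets above. Of its 22 genes 11 had a row and all 11 were tested, with 7 higher and 3 lower in the mean of both guides and a median log2 difference of 0.23, against -0.08 over all genes tested. Without Ccn1, Ccn2 and Amotl2 the median was 0.153, and 4 of 8 were higher, 3 lower, and Dock5 did not pass. These shares are near the 37.8% higher and 43.3% lower of all genes tested. Igfbp3, a secreted binder of insulin-like growth factors, stood at 11.2, 10.0 and 12.1 FPKM with guide 2 and at 9.46, 10.1 and 10.8 FPKM with guide 1, against 0.738, 0.889 and 0.970 FPKM in the control. It was high in every knockout library, and the guides overlapped. Its log2 differences were 2.70 with guide 2 and 2.57 with guide 1 (limma adjusted p = 1.66e-09 and 1.27e-09). F3, the gene of tissue factor, stood at 50.8, 52.8 and 55.1 FPKM with guide 2 and at 89.5, 87.7 and 94.2 FPKM with guide 1, against 29.5, 29.0 and 33.7 FPKM in the control, with separate groups and guide 1 the highest. Its log2 differences were 0.77 with guide 2 and 1.53 with guide 1 (limma adjusted p = 1.83e-06 and 8.55e-09).

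Asap1, an Arf GTPase activator, and Axl, a receptor tyrosine kinase, completed the increases, with log2 differences averaged over the guides of 0.60 and 0.23 (limma adjusted p = 1.85e-06 and 0.000872). The lower genes were Tgfb2, a TGF-beta ligand, Gadd45b, a stress-induced gene, and Rbms3, an RNA-binding protein gene. Tgfb2 stood at 10.3, 10.5 and 10.8 FPKM with guide 2 and at 20.8, 21.6 and 22.7 FPKM with guide 1, against 33.7, 32.7 and 28.6 FPKM in the control, in separate groups with guide 2 the lowest. Its log2 differences were -1.499 with guide 2 and -0.52 with guide 1 (limma adjusted p = 1.66e-08 and 3.33e-05). Gadd45b and Rbms3 averaged -0.36 and -0.33 on the log2 scale (limma adjusted p = 0.000112 and 0.000436).

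**Figure D4:**
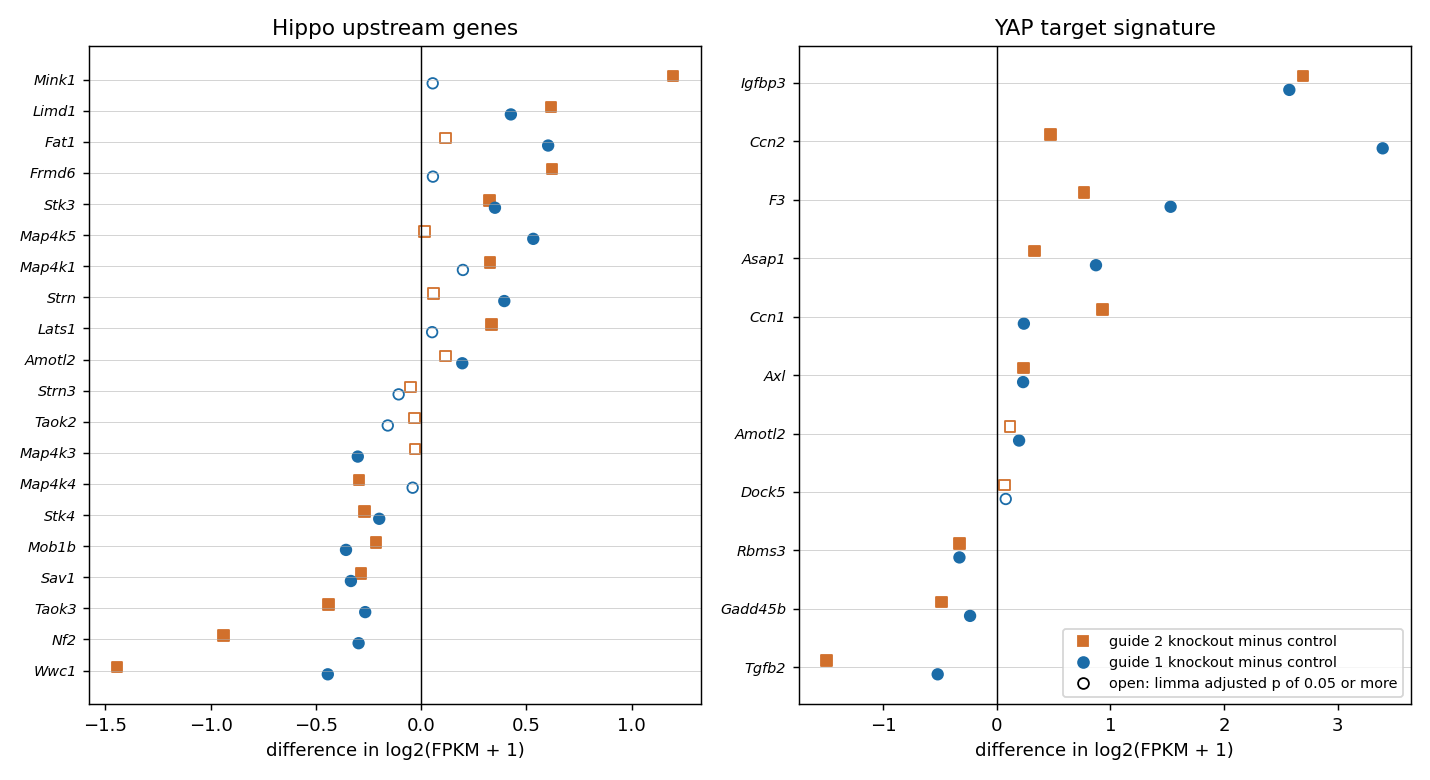
Differences from control in log2(FPKM + 1) for 20 tested Hippo upstream genes (left) and 11 tested genes of the YAP target signature (right), ordered by the mean of both guides, with guide 2 as squares and guide 1 as circles. Open symbols did not pass a limma adjusted p of 0.05. Wwc1 and Nf2 are the lowest on the left, at -1.44 and -0.94 with guide 2, and Ccn2 with guide 1 is the highest on the right, at 3.40.

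Other CCN family genes did not follow Ccn1 and Ccn2. Ccn3, formerly Nov, stood at 2.34, 2.37 and 3.08 FPKM with guide 2 and at 8.45, 8.39 and 8.53 FPKM with guide 1, against 25.3, 24.4 and 17.9 FPKM in the control, so it was low in both knockouts and lowest with guide 2. Its log2 differences were -2.70 with guide 2 and -1.30 with guide 1 (limma adjusted p = 2.47e-08 and 4.36e-06). Ccn5, formerly Wisp2, averaged 55.4 ± 2.49 FPKM with guide 2 and 53.0 ± 1.68 FPKM with guide 1, against 52.5 ± 6.36 FPKM in the control (SD, n = 3 each), and its difference did not pass (limma adjusted p = 0.49 with the guides averaged). Ccn6 was under 0.04 FPKM in each group mean and Ccn4 had no row.

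Ccn1 and Ccn2 are also known as early response genes and as targets of SRF with its MRTF coactivators, so both programmes are given beside them. Of 17 immediate early genes 13 had a row and 10 were tested, with 9 higher and 1, Btg2, lower in the mean of both guides, beside 37.8% higher and 43.3% lower of all genes tested. Their median log2 difference was 0.98 against -0.08 over all genes tested. Fosl1, Egr1 and Nr4a1 led with log2 differences of 2.08, 1.69 and 1.65 (limma adjusted p = 8.55e-08, 6.85e-08 and 5.97e-09). Of the 10 genes, 3 were called higher with guide 2 than with guide 1 and 5 lower, beside 31.2% and 23.3% of all genes tested. Egr1, like Ccn1, was higher with guide 2 than with guide 1, by 1.04 (limma adjusted p = 1.51e-05). Fosl1, like Ccn2, was lower with guide 2, by a difference of -0.60 (limma adjusted p = 0.0031). Btg2, an antiproliferative gene, differed by -0.24 (limma adjusted p = 0.0268), and this did not pass without a filter on low values (0.0712) or on leaving out guide 2 replicate 2 (0.0523), guide 1 replicate 2 (0.0539) or control replicate 1 (0.11) or 2 (0.136). Summed over the 13 genes the level was 216 to 228 FPKM with guide 2 and 259 to 271 FPKM with guide 1, against 112 to 120.5 FPKM in the control. Of 15 SRF and actin genes 14 were tested, with 13 higher and 1, Cnn1, lower, in the mean of both guides, beside the same 37.8% and 43.3%. Their median log2 difference was 0.96 against -0.08 over all genes tested. With guide 2 by itself 12 were higher and 1 lower, and with guide 1 by itself 13 were higher and 0 lower. Between guides 1 was called higher with guide 2 and 10 lower, beside the same 31.2% and 23.3%. Under quantile normalization 8 were lower, as Tpm2 and Actb lost their calls and the difference of Actb changed sign. Actg2, Myl9 and Acta2 led, at 4.72, 2.84 and 2.59 on the log2 scale averaged over guides (limma adjusted p = 3.16e-12, 2.31e-10 and 3.16e-12). Cnn1, a calponin, was lower with guide 2, at a log2 difference of -1.24 (limma adjusted p = 1.28e-09), while with guide 1 the difference of -0.04 did not pass (limma adjusted p = 0.307). Tagln, which encodes transgelin, averaged 10.4 ± 0.303 FPKM with guide 2 and 246 ± 6.88 FPKM with guide 1, against 9.43 ± 1.31 FPKM in the control (SD, n = 3 each). Its guide 2 difference of 0.14 did not pass (limma adjusted p = 0.13). Summed over the 14 genes the level was 5352 to 5416 FPKM with guide 2 and 7108 to 7191 FPKM with guide 1, against 3092 to 3334 FPKM in the control. Both lists were chosen with earlier results of these data known, so their shares and medians are description only. The part of either programme in the Ccn1 and Ccn2 values was not tested.

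Profiles most like Ccn1 and Ccn2 were sought among 4645 genes that averaged at least 5 FPKM, by the root mean square difference of log2(FPKM + 1), relative to the control mean, over the 9 libraries. Closest to Ccn1 were Plpp1, Polr2a and Cct3, with differences of 0.0729, 0.0756 and 0.0832 log2 units. They encode a phospholipid phosphatase, the largest subunit of RNA polymerase II and a chaperonin subunit. Closest to Ccn2 were Krt80, Ccl2 and Pmaip1, with differences of 0.281, 0.324 and 0.403 log2 units. They encode a keratin, a monocyte chemokine and the BH3-only protein NOXA. Krt80 averaged 2.05 ± 0.139 FPKM with guide 2 and 17.9 ± 1.27 FPKM with guide 1, against 1.39 ± 0.0875 FPKM in the control (SD, n = 3 each), the guide 1 pattern of Ccn2 at a lower level. Ccl2 averaged 1.89 FPKM with guide 2 and 13.2 FPKM with guide 1, against 0.552 FPKM in the control. These levels are 3.43 and 23.9 times the control, where those of Ccn2 were 1.38 and 10.6 times. The likeness of Ccl2 thus rests partly on the 1 added before the log, which shrinks changes of low genes. Krt80 and Ccl2 averaged under 5 FPKM with guide 2 and in the control. They passed the filter only through guide 1, where Ccn2 is high, so their place in this search is description only. The 9 libraries fall into 3 groups, so likeness rests on few independent points.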

How the data were processed

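Libraries of polyadenylated ROC6 RNA kept strand and were read from both ends, per the labels' protocols. Titles give 3 groups of 3. The authors deposited 1 FPKM value for each gene in each library, as the column headers state. HISAT2, StringTie, cutadapt and FastQC appear in the submitters' processing notes without versions. Genome build and annotation: not given in the sources used here. FPKM removes the read total, so depth is unknown and no count model was fitted. Other columns of per-sample values numbered 0, and 0 pairs of libraries held identical values.

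Of 15620 rows, 174 that share a symbol were left out, and 8481 of the 15446 others had a mean under 1 FPKM and were not tested. Values were analysed as log2(FPKM + 1), which understates changes of low genes. limma 3.58.1 (R 4.3.3) fitted linear models to the 9 libraries together, letting the prior variance follow the mean, and p-values were adjusted over 6965 genes by Benjamini-Hochberg with calls under 0.05. The fit was tested on simulated data. Errors of levels are SDs, and SE and 95% intervals come from the model. The members and lists were chosen with earlier results of these data known. Genes named from a pathway list are the 3 largest called increases and decreases in the mean of both guides. Asap1, Axl, Dock5, Ccn5, Ccn6, Tagln, Tpm2, Actb, Stk3, Stk4, Sav1, Lats1 and the cell type markers were named after their values were seen. Promoters are from RefSeq (GRCm38.p6), and exon overlaps from GENCODE M21 on GRCm38, both matched by symbol.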

Additional observations from a re-analysis of the deposited data

Results flagged for a closer look

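The level differed between the 2 guides in 4 of the 6 measured genes, by the test of guide 2 against guide 1 itself. On the log2 scale guide 2 minus guide 1 was -2.92 for Ccn2, -1.18 for Tead2, 0.69 for Ccn1 and -0.20 for Tead3 (limma adjusted p = 1.33e-08, 9.18e-07, 1.19e-05 and 0.0276). The Tead3 call was lost under 5 of 17 other settings, with a highest limma adjusted p of 0.0945, and those of the other 3 genes passed under all 17. Among all genes tested 54.5% were called in this comparison. Each guide is 1 clone, so guide and clone cannot be told apart, and no cause of these differences was tested.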

How the results depend on the processing

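The counts of called genes in the 4 comparisons and the count of 3 genes with the larger gap to control stayed within 1.5 times their values under every alternative run that gave them: trimmed mean rescaling, quantile normalization, dropping the low-value filter or raising it to 5 FPKM, a pseudocount of 0.1, a constant prior variance, a replicate block, fits on the compared libraries, and omission of single libraries. Fits on the compared libraries gave no mean of both guides and so no count of larger gaps. A factor of 1.5 on the p-values, for the shared side of the rows, was added after seeing the data. It was applied to the comparisons with control only, and gave no count of larger gaps. Under the replicate block 4764, 4559, 5651 and 3784 genes were called for guide 1 against control, guide 2 against control, mean of both guides against control, and then guide 2 against guide 1, beside 4745, 4557, 5649 and 3793 without it. Same-numbered libraries of guide 1 and guide 2 had correlations of deviations of 0.245, 0.0219 and 0.21. Differently numbered ones had -0.234 to 0.0423, and same-numbered knockout and control libraries -0.107 to 0.0556. Whether the numbers pair the libraries is thus not settled, and the block changed no call of the 6 genes.

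Of 24 results for the 6 genes, 18 kept their side of the threshold under all settings and 0 changed sign after passing. The other 6 were Tead3 with guide 1 and between guides, Amotl2 with guide 1, guide 2 and their mean, and Tead2 with guide 2. The limma adjusted p for the mean of both guides of Amotl2 was 0.0979 without a filter, 0.0577 with a constant prior variance and 0.0664 with p-values multiplied by 1.5. For Tead3 between guides it was 0.0563 without a filter. For 25 other named genes 92 of 100 results kept their side of the threshold. Tead4 with guide 1 (limma adjusted p = 0.0332) did not pass without guide 1 replicate 1 (0.0709) or 3 (0.112) or control replicate 1 (0.104) or 3 (0.0827). With no counts, the precision that depth gives could not be stated.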
